A study of Mus musculus with 30 samples.

Results

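The 9 genes described here are the members of the Bcl2 family and the initiator caspases whose Ensembl identifiers in the deposited table map to the symbols Bax, Bak1, Bad, Bid, Bcl2, Bcl2l1, Mcl1, Casp8 and Casp9. All 9 were found among the 21412 genes of the table, and all 9 passed the filter on low values. RNA from the hippocampus of 30 male BALB/c mice was sequenced, 5 mice in each of 6 groups. Ctr mice received unspiked feed, and the feed of LD and HD mice held 0.28 and 5 mg methylmercury (MeHg) per kg for 11 weeks, with cysteine added to the feed of all 3 groups. The mice of these 3 groups were 2 to 3 weeks old at arrival and were housed individually. The labels assign selenium to the mice of the Se_Ctr, Se_LD and Se_HD groups (the title of the series names selenium-methionine), but they give neither its amount, the MeHg content of that feed nor the age of those mice. The question was whether MeHg or selenium changed the RNA levels of genes that set off or hold back programmed cell death.

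Apoptosis through the mitochondrion is decided among the proteins of the Bcl2 family. Bax and Bak1 form pores in the outer membrane of the mitochondrion, Bcl2, Bcl2l1 (Bcl-xL) and Mcl1 hold them in check, and Bad and Bid, which carry only the BH3 helix of the family, shift that balance towards death. Cytochrome c that leaves through the pores activates the initiator caspase encoded by Casp9, whereas the one encoded by Casp8 is activated at death receptors of the cell surface and can cleave Bid, which joins the routes. Mature neurons are known to keep parts of this pathway at a low level, and most control of these proteins acts after transcription, through cleavage, phosphorylation and binding, which RNA levels do not record.

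The family is held together by the BH3 helix, and the caspases by their active site, so the coding stretch of each is shown to let the members be compared. The sequences are from the reference genome of the files' build, NCBIM37, which is not that of the BALB/c strain, and are given 5′ to 3′ on the coding strand. Capitals mark the codons of the conserved leucine and of the glycine (serine in Bad) and aspartate that follow it in the BH3 helix, or the codons of the active-site motif with the catalytic cysteine in the caspases.
Bax (chr7:52721358-52721411, minus strand): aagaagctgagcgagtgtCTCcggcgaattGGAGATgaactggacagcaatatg
Bak1 (chr17:27159467-27159520, minus strand): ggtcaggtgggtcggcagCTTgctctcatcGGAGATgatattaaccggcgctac
Bad (chr19:7025264-7025317, plus strand): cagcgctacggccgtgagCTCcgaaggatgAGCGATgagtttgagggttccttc
Bid (chr6:120847298-120847351, minus strand): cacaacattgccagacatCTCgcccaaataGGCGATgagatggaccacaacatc
Bcl2 (chr1:108609143-108609196, minus strand): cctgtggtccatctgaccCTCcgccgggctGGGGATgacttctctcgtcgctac
Bcl2l1 (chr2:152655424-152655477, minus strand): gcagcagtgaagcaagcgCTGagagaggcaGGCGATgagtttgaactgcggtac
Mcl1 (chr3:95463341-95463394, plus strand): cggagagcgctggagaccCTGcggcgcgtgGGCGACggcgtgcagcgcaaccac
Casp8 (chr1:58901439-58901489, plus strand): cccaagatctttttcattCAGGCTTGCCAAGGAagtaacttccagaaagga
Casp9 (chr4:141363144-141367470, plus strand, joined over an intron): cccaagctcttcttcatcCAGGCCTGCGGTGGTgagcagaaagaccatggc
Each motif was found at 1 place in its protein, at residues 63 to 68 of the 192 residues of Bax, for example, and at residues 323 to 327 of the 454 residues of Casp9. Apart from the stretch of Casp9, each lies within 1 exon.

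The libraries held between 5768208 and 11510521 reads on genes. HD replicate 2 stood apart from the other libraries, with a root mean square distance of 0.582 log2 units from the median library, against at most 0.441 in the others, and the main results in HD mice are also given without it. Markers of hippocampal neurons were present in all libraries, with Prox1 between 459 and 1341 and Neurod6 between 1166 and 2637 normalized counts. All 14 of 14 microglial markers and 6 of 7 astrocyte markers had a p under 0.05 and were higher in HD than in Ctr mice, and the summed microglial markers lay between 4285 and 10666 normalized counts in HD and between 3321 and 3619 in Ctr mice. The astrocyte sum was between 54223 and 88730 in HD and between 44783 and 55250 in Ctr mice. A single neuronal marker, 1 of 7, was lower in HD, and the neuronal sum ranged from 41950 to 63676 in HD and from 53173 to 62699 in Ctr mice. In Se_HD mice none of these 3 lists had a member with a limma p under 0.05 against Se_Ctr, and the microglial sum lay between 3440 and 4076. Markers of oligodendrocytes and endothelium had no member past that p in HD or Se_HD, and the 3 of 7 markers of lymphocytes and granulocytes in the table summed to between 1.81 and 24.1, with 1 of them higher in HD. Of 5 erythrocyte markers 1 was lower in HD (0 of 5 without HD replicate 2), at a median sum of 162 in HD and 344 in Ctr mice. The choroid plexus sum ranged from 272 to 36746 over the libraries, with overlapping ranges in all 6 groups. Its median was 26440 in HD and 10662 in Ctr mice, and 27852 in Se_HD and 13956 in Se_Ctr mice. Of its 5 markers 0 had a limma p under 0.05 in either comparison. The part of these cell types in the results below was not tested.

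Per kb of merged exons, the scale on which different genes can be compared, Mcl1 had the highest level, 195 ± 25.9 normalized counts per kb (mean ± SD over the 30 libraries), followed by Bcl2l1 with 147 ± 13.9 and Bax with 133 ± 29.7. Casp9 (77.2 ± 11.2) and Bad (72.6 ± 15.6) were intermediate. The lowest levels per kb were those of Bcl2 (27.3 ± 4.29), Bak1 (24.6 ± 5.81), Bid (14.6 ± 2.66) and Casp8 (11.7 ± 3.44). Among the protective genes the hippocampus thus held more RNA per kb of Mcl1 and Bcl2l1 than of Bcl2, and more of the pore former Bax than of Bak1. The exon length is that of all annotated transcripts merged, so a gene of which short transcripts are used is understated on this scale. Exons of Bak1, Bad and Bid overlap exons of a gene on the opposite strand that is also in the table, Ggnbp1, Gpr137 and Bcl2l13, over 14.8%, 25.8% and 17.7% of their exon bases, and the strand setting of the counting is not given in the sources used here, so reads in these stretches cannot be told apart.

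**Figure D1:**
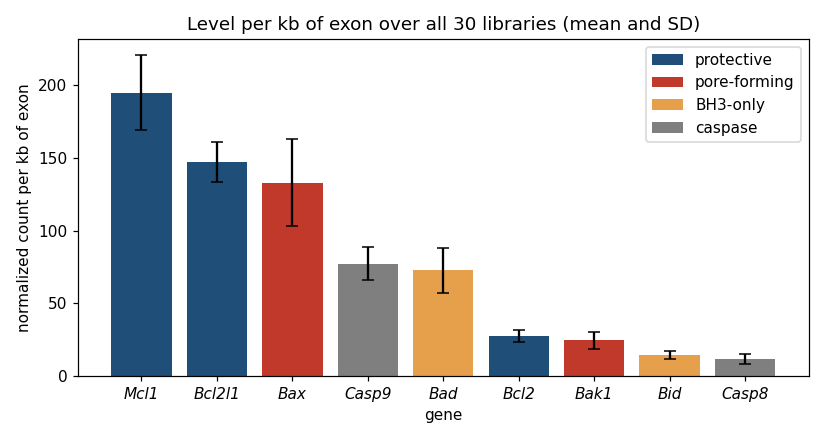
Normalized count per kb of merged exons for the 9 genes, as the mean over all 30 libraries with the SD as error bars, ordered by level and coloured by role. Mcl1, Bcl2l1 and Bax stand above 100 normalized counts per kb, and Bcl2, Bak1, Bid and Casp8 below 30.

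The highest group mean of a gene was between 1.12 times (Mcl1) and 1.48 times (Casp8) its lowest. With the groups of each gene put in order of their means, 1 of 45 pairs of neighbouring groups differed by more than the larger of their SDs, and it was Casp9 in Se_HD and HD mice (a difference of 45.1 normalized counts beside an SD of 41.9). Without HD replicate 2 it was 0 of 45, the difference for Casp9 being 32.3 beside an SD of 35.2. Neighbours in such an order are close by construction. Neither this count nor the ratios of group means were computed over all genes, so they do not show how stable these 9 are beside others. HD was the group with the highest mean for 6 genes, Bax, Bak1, Bad, Bcl2, Mcl1 and Casp8, and the lowest for Bid and Casp9. How often HD was the highest or lowest group over all genes was not counted. Without HD replicate 2 the HD mean of Mcl1 was 644 normalized counts, below that of Ctr (698) and Se_HD (688), and that of Casp8 was 33.1, the same as in LD mice. In the F test over the 6 groups Bcl2 (limma p of 0.0193) and Casp9 (0.0308) had a p under 0.05, which makes 2 of 9 genes, where 6.91% of all 21383 genes tested had one. The p of Casp9 was 0.127 without HD replicate 2, 0.0557 without HD replicate 3 and 0.103 without HD replicate 5, and that of Bcl2 was 0.0535 without HD replicate 1. At an adjusted p under 0.05 that test called 0.444% of all genes and none of the 9, of which Bcl2 had the lowest value (limma adjusted p = 0.531).

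**Figure D2:**
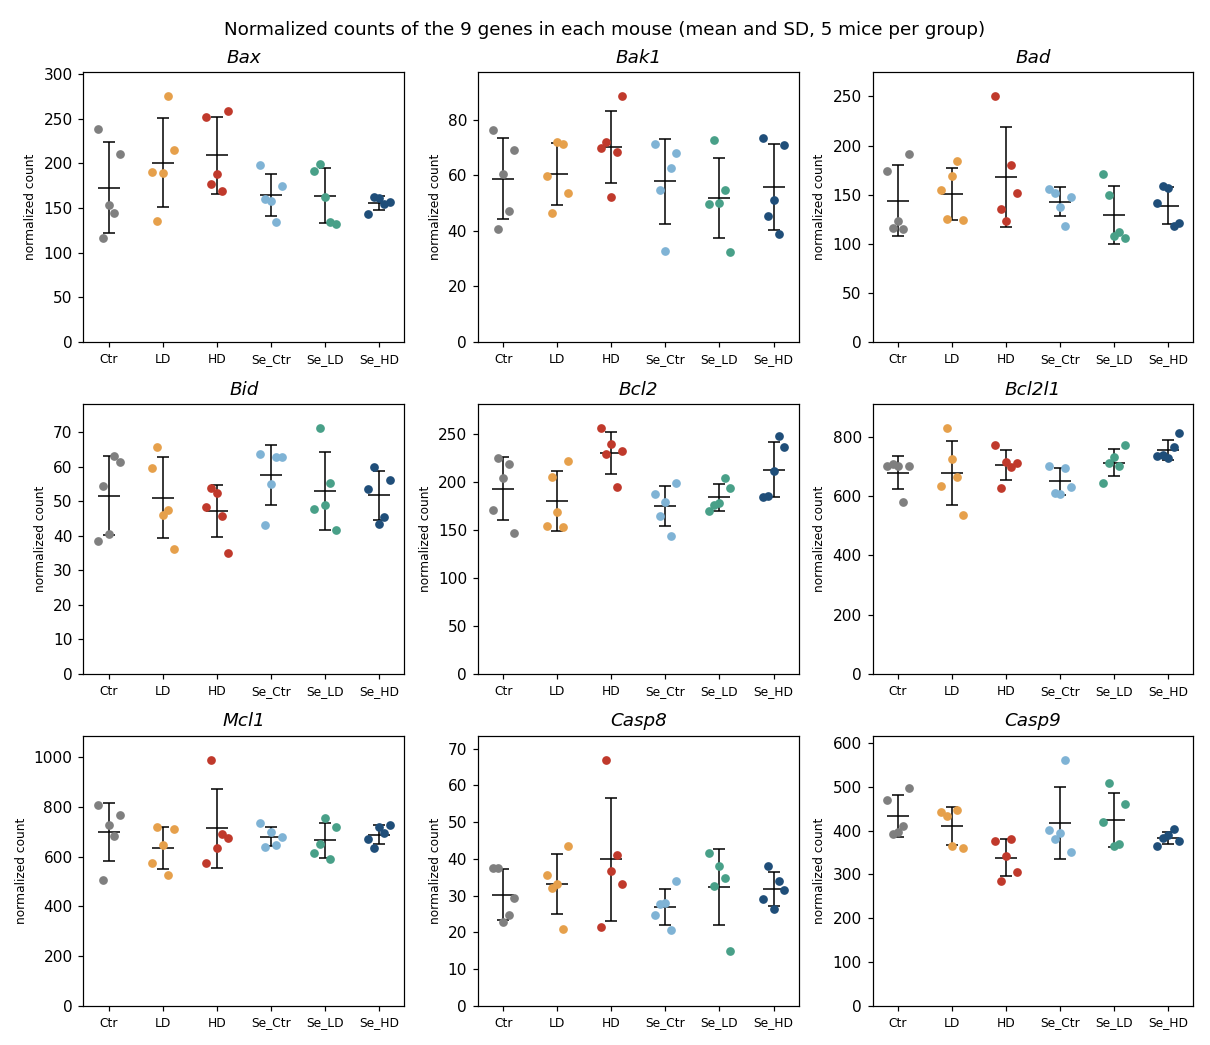
Normalized counts of the 9 genes by group, 1 point for each mouse, with the mean as a horizontal line and the SD as error bars (5 mice in each group). All 5 HD mice lie below all 5 Ctr mice for Casp9, all 5 Se_HD mice above all 5 Se_Ctr mice for Bcl2l1, and all 5 Se_HD mice below all 5 HD mice for Bax.

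High-dose MeHg was first compared with the control feed. Casp9 was lower and Bcl2 higher in HD than in Ctr mice, and the other 7 genes did not pass the test. Casp9, the initiator caspase of the mitochondrial route, was at 393, 397, 410, 470 and 497 normalized counts in Ctr mice and at 286, 305, 341, 377 and 380 in HD mice. Every HD mouse was below every Ctr mouse. The means were 433 ± 47.2 and 338 ± 41.9 (SD, n = 5 mice each), a log2 fold change of -0.36 (SE 0.11, limma p of 0.00255, adjusted p = 0.123), and the exact permutation test of 5 mice against 5 gave its smallest possible p of 0.00794. The log2 fold change was -0.30 (limma p of 0.0119) without HD replicate 2, which had the lowest value. In these bulk samples fewer cells of a type and less RNA per cell cannot be told apart. The HD mice with the lowest Casp9, at 286 and 305, were those with the highest microglial sums, 10666 and 9090, and also those with the lowest neuronal sums, 41950 and 47710. Their part in the lower Casp9 was not tested.

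**Figure D3:**
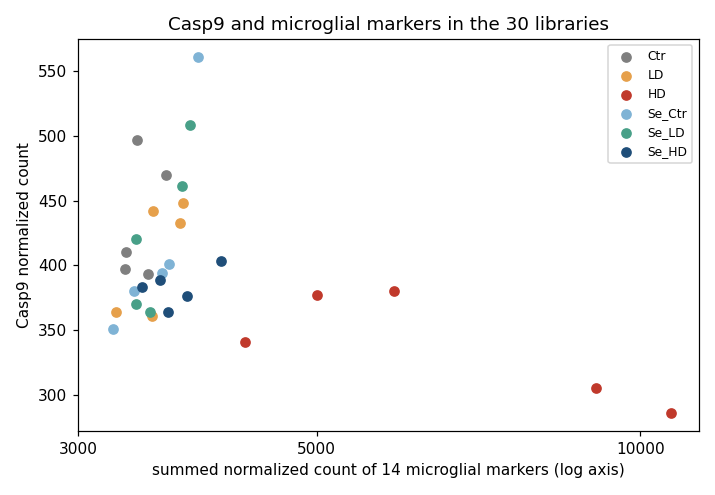
Casp9 in normalized counts against the summed normalized counts of 14 microglial markers (log axis), 1 point for each of the 30 libraries, coloured by group. The HD mice lie to the right, from 4285 to 10666, and at or below 380 normalized counts of Casp9, while the other groups lie between 3233 and 4076.

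Bcl2, the founding protective gene, was at 147, 171, 204, 219 and 225 normalized counts in Ctr mice and at 195, 229, 232, 240 and 256 in HD mice. The ranges overlapped, although 4 of the 5 HD values were above the Ctr range. Its log2 fold change was 0.26 (SE 0.12, limma p of 0.0389, adjusted p = 0.411), and the exact permutation test gave p = 0.0714. The limma p rose to 0.0515 without HD replicate 2 at a log2 fold change of 0.27, and to 0.174 without Ctr replicate 5, the Ctr mouse with the lowest value, at 0.17. It was between 0.0572 and 0.0931 when Ctr replicate 1 or HD replicate 1, 3 or 5 was left out. The call was also lost with the diets fitted apart (0.0699), with only the 2 groups in the fit (0.0633) and with sets of library numbers as a covariate (0.0505). With 2 of 9 genes at a p under 0.05, the count stands beside 11.1% of all genes tested in this comparison. Groups that do not overlap were found for 1 of 9 genes, Casp9, and for 1.62% of all genes. None of the 9 was among the 0.935% of genes with an adjusted p under 0.05, and the median log2 fold change of the 9 was 0.21 against 0.01 over all genes, and 0.11 against 0.01 without HD replicate 2.

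Of the pore formers, Bax was at 116, 144, 153, 211 and 239 normalized counts in Ctr mice and at 169, 177 and 188 in 3 HD mice, with the other HD mice above all Ctr mice at up to 259. The spread within Ctr was as wide as that in HD, and 3 of the 5 HD mice lay within the range of the Ctr mice. The log2 fold change of Bax was 0.30 (SE 0.17, limma p of 0.0902, adjusted p = 0.55, exact permutation p = 0.23). That limma p fell to 0.0176 without Ctr replicate 1, the Ctr mouse with the highest value, to 0.0401 without Ctr replicate 5 and to 0.0494 without HD replicate 4. With any other mouse left out Bax did not pass, and its limma p was at most 0.331. Bak1 (log2 fold change 0.27, exact permutation p = 0.206) and the BH3-only genes Bad (0.21, p = 0.381) and Bid (-0.12, p = 0.54) did not pass. Among the protective genes the log2 fold change was 0.06 for Bcl2l1 (exact permutation p = 0.484) and 0.02 for Mcl1 (p = 0.913). Casp8 was at 21.5, 33.3, 36.6, 41 and 66.9 normalized counts in HD mice against 22.7 to 37.4 in Ctr mice (log2 fold change 0.32, SE 0.26, exact permutation p = 0.333). HD replicate 2 held the highest values of Casp8 (66.9) and Mcl1 (988), and without it their log2 fold changes were 0.11 and -0.10.

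Low-dose MeHg gave no gene of the 9 with a limma p under 0.05 against Ctr, where 4.68% of all genes had one. The lowest limma p was that of Bax (0.183, log2 fold change 0.23, SE 0.17), at 136 to 275 normalized counts in LD and 116 to 239 in Ctr mice, and the log2 fold changes of the other 8 lay between -0.13 (Mcl1) and 0.11 (Casp8). Casp9 was at 361, 364, 433, 442 and 448 normalized counts in LD mice, within or below the Ctr range, with a log2 fold change of -0.08 (SE 0.11, exact permutation p = 0.429). Bcl2 had one of -0.10 (SE 0.12, exact permutation p = 0.571). The count was also 0 with edgeR and with DESeq2 on the recovered reads. The count became 1 when Ctr replicate 1 or LD replicate 2 was left out (Bax) or Ctr replicate 2 (Mcl1).

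The groups that the labels name LD and HD were then compared with their control within the selenium diet. In Se_HD mice Bcl2 and Bcl2l1 were higher than in Se_Ctr mice, and no gene of the 9 was lower at a p under 0.05. Bcl2 was at 144, 165, 179, 187 and 199 normalized counts in Se_Ctr mice and at 184, 185, 212, 237 and 248 in Se_HD mice. The groups overlapped, with 3 Se_HD mice above all Se_Ctr mice, and the log2 fold change was 0.28 (SE 0.12, limma p of 0.0277, adjusted p = 1, exact permutation p = 0.0556). The limma p of Bcl2 was 0.0542 without Se_Ctr replicate 2, 0.0989 without Se_Ctr replicate 4, 0.0898 without Se_HD replicate 4 and 0.0732 without Se_HD replicate 5. Bcl2l1, whose product protects neurons of the adult brain, was at 608, 611, 632, 695 and 703 normalized counts in Se_Ctr mice and at 729, 736, 740, 765 and 812 in Se_HD mice. Every Se_HD mouse was above every Se_Ctr mouse. The log2 fold change of Bcl2l1 was 0.22 (SE 0.09, limma p of 0.0161, adjusted p = 1, exact permutation p = 0.00794), and its p stayed at or below 0.0442 with any 1 mouse left out. In the F test over the 6 groups the limma p of Bcl2l1 was 0.188, so its call is lost if that test must pass first. In Se_HD against Se_Ctr 2 of 9 genes stand beside 2.69% of all genes, and 1 of 9 with groups that do not overlap beside 0.753%. The median log2 fold change was -0.04 over the 9 and -0.01 over all genes.

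Casp9 was at 351, 380, 394, 401 and 561 normalized counts in Se_Ctr mice and at 364, 376, 383, 389 and 403 in Se_HD mice. The Se_HD values lay inside the Se_Ctr range, and the log2 fold change was -0.10 (SE 0.11, exact permutation p = 0.563). With 1 mouse left out that log2 fold change of Casp9 ranged from -0.16 to 0.01. Bax, Bak1, Bad, Bid, Mcl1 and Casp8 had log2 fold changes between -0.15 (Bid) and 0.24 (Casp8), with limma p between 0.366 and 0.881. In Se_LD against Se_Ctr no gene of the 9 had a limma p under 0.05, where 1.96% of all genes had one, and edgeR and DESeq2 also gave 0. The lowest p was that of Bcl2l1 (log2 fold change 0.13, SE 0.09, limma p of 0.13, exact permutation p = 0.0556), at 646 to 772 normalized counts in Se_LD mice. Its limma p was 0.048 when the selenium libraries were fitted apart.

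The change with HD was tested for a difference between the diets. No gene of the 9 passed that test with limma, where 4.77% of all genes did, nor with edgeR or DESeq2. The nearest were Casp9, for which the log2 fold change with selenium was 0.26 above that without (SE 0.16, limma p of 0.111, adjusted p = 0.997), and Bax, for which it was 0.37 below (log2 difference -0.37, SE 0.24, limma p of 0.136, adjusted p = 0.997). Leaving out 1 mouse moved each past the threshold, Se_Ctr replicate 4 for Casp9 (a limma p of 0.0142) and Ctr replicate 1 for Bax (0.0416). With other mice left out the limma p reached 0.219 for Casp9 and 0.315 for Bax. Without HD replicate 2 it was 0.213 for Casp9 (log2 difference 0.20) and 0.0983 for Bax (-0.42). For the LD effect no gene of the 9 differed between the diets, where 3.75% of all genes did, and the lowest p was 0.237. The decrease of Casp9 in HD mice is thus not shown to differ from its change in Se_HD mice. For Bcl2 the HD changes of both diets lay close together (difference 0.02, SE 0.17, limma p of 0.915). Across the 30 libraries, log2 Bcl2 had a Pearson r of 0.397 with the log2 microglial sum and of 0.5 with the astrocyte sum (0.365 and 0.511 without HD replicate 2), and the part of these cells in its values was not tested.

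Taken as a mean over both diets, HD and Se_HD against Ctr and Se_Ctr gave 3 of 9 genes with a p under 0.05, where 9.09% of all genes had one and 0.210% had an adjusted p under 0.05. Bcl2 was higher by 0.27 on the log2 scale (SE 0.09, limma p of 0.00346, adjusted p = 0.229), Bcl2l1 was higher by 0.14 (SE 0.06, limma p of 0.0317, adjusted p = 0.487) and Casp9 was lower, with a log2 fold change of -0.23 (SE 0.08, limma p of 0.0054, adjusted p = 0.261). The p of Bcl2 lay between 0.00164 and 0.0113 and that of Casp9 between 0.00241 and 0.0178 with any 1 mouse left out, while that of Bcl2l1 reached 0.0795 without Ctr replicate 4 and was from 0.0559 to 0.0622 without HD replicate 1, Se_Ctr replicate 2 or 3, or Se_HD replicate 5. Casp8 passed, with a limma p of 0.0416, only when HD replicate 1 was left out. These values use the same mice as the comparisons above and are not independent of them.

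**Figure D4:**
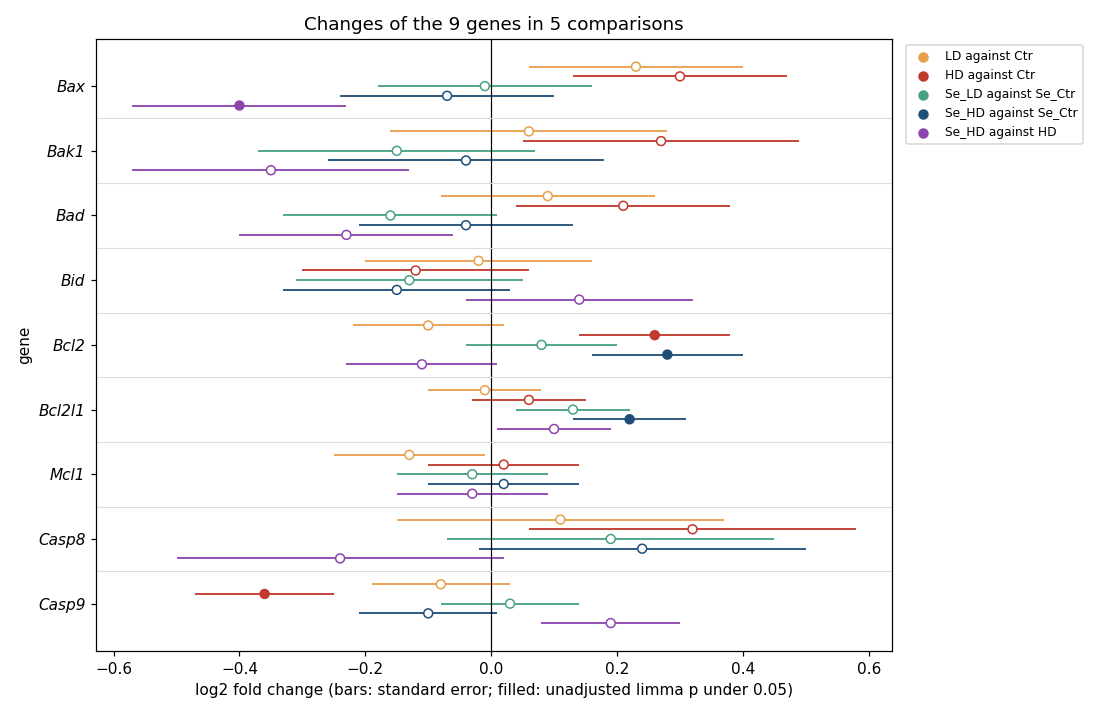
Log2 fold changes of the 9 genes with their standard errors as bars, in 5 comparisons; filled points have an unadjusted limma p under 0.05. Filled points are Casp9 (-0.36) and Bcl2 (0.26) in HD against Ctr, Bcl2 (0.28) and Bcl2l1 (0.22) in Se_HD against Se_Ctr, and Bax (-0.40) in Se_HD against HD.

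Each selenium group was compared with the group of the same name without selenium. In Se_HD against HD mice Bax was lower, 1 of 9 genes at a p under 0.05, where 8.38% of all genes had one. Bax was at 143, 155, 157, 161 and 163 normalized counts in Se_HD mice and at 169 to 259 in HD mice. All Se_HD mice were below all HD mice. Groups that do not overlap, in either direction, were found for 1 of 9 genes and for 1.50% of all genes. The log2 fold change was -0.40 (SE 0.17, limma p of 0.0272, adjusted p = 0.525, exact permutation p = 0.00794), and the limma p was 0.0184 without HD replicate 2, 0.0817 without HD replicate 1, 0.0907 without HD replicate 5 and 0.0556 without Se_HD replicate 1. HD replicates 1 and 5 are the 2 HD mice with the highest Bax. None of the 9 was among the 0.327% of genes with an adjusted p under 0.05. Bak1 and Bad had log2 fold changes of -0.35 (exact permutation p = 0.167) and -0.23 (p = 0.325), and Casp9 one of 0.19 (SE 0.11, p = 0.0635), at 383 ± 14.6 in Se_HD and 338 ± 41.9 in HD mice. Of the cell type markers, 13 of 14 of microglia and 5 of 7 of astrocytes were lower and 1 of 7 of neurons was higher in Se_HD than in HD mice, and their part in these values was not tested. This comparison uses the same HD mice as HD against Ctr.

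In Se_Ctr against Ctr no gene of the 9 had a limma p under 0.05 (4.00% of all genes, lowest p 0.285, for Bcl2), and none had one in Se_LD against LD (2.86% of all genes, lowest p 0.12, for Bax, and 0.0243 without LD replicate 2). edgeR and DESeq2 also gave none in either. Over the mean of these 3 comparisons Bax was lower with selenium, 1 of 9 genes (log2 fold change -0.23, SE 0.10, limma p of 0.0253, adjusted p = 0.743), where 6.62% of all genes had a p under 0.05, and its p was 0.0558 without Ctr replicate 1 and 0.0548 without LD replicate 4. The spread of Bax was also narrower in Se_HD mice, with an SD of 7.89 normalized counts against 43.1 in HD and 50.8 in Ctr mice, which was not tested.

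Bax varied with a property of the libraries. Bax has short exons in sum, 1339 bases, and an index was computed per library as the median log2 deviation of 1570 genes with fewer than 1500 exon bases minus that of 4621 genes with more than 5000, a choice made after the data were seen. Across the 30 libraries the index had a Pearson r of 0.662 with Bax, 0.624 with Bad and 0.406 with Bak1, and of -0.121 with Casp9 and -0.213 with Bcl2. It lay between -0.04 and 0.20 in HD, between -0.09 and 0.04 in Se_HD and between -0.22 and 0.13 in Ctr mice, and it was highest, 0.37, in LD replicate 4, the mouse with the highest Bax (275). HD replicate 5, with the highest Bax of its group (259), had an index of 0.20. The part of the index in the values of Bax was not tested.

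Pairs of members were described over the 30 libraries, which share their normalization, so that no test is given. Of 36 pairs the highest Pearson r were those of Bax with Bad (0.714), Bax with Bak1 (0.599) and Bak1 with Bad (0.512), all genes that promote death, and these 3 genes all followed the index of short genes. The lowest were those of Bcl2 with Casp9 (-0.623) and Casp8 with Casp9 (-0.511), which were -0.609 and -0.374 without HD replicate 2. The ratio of Bax to Bcl2, often read as a balance of promoter and inhibitor, was likewise only described. It was 0.951 ± 0.432 in Ctr, 1.16 ± 0.415 in LD and 0.905 ± 0.146 in HD mice, and 0.944 ± 0.072, 0.906 ± 0.231 and 0.742 ± 0.102 in Se_Ctr, Se_LD and Se_HD mice. On the log2 scale the LD mean was 0.14, and -0.04 without LD replicate 4. The Ctr mice alone covered 0.515 to 1.43, a range that held all 5 HD mice and all 15 selenium mice. The ratio of Bax to Bcl2l1 was 0.254 ± 0.0695 in Ctr, 0.308 ± 0.103 in LD and 0.295 ± 0.0495 in HD mice. It was 0.255 ± 0.0356 in Se_Ctr, 0.233 ± 0.0543 in Se_LD and 0.207 ± 0.0137 in Se_HD mice. Each Se_HD mouse lay below each HD mouse (0.194 to 0.222 against 0.242 to 0.365). These ratios hold the same Bax values as the comparison of Bax above, and such separations were not counted over other pairs of genes.

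**Figure D5:**
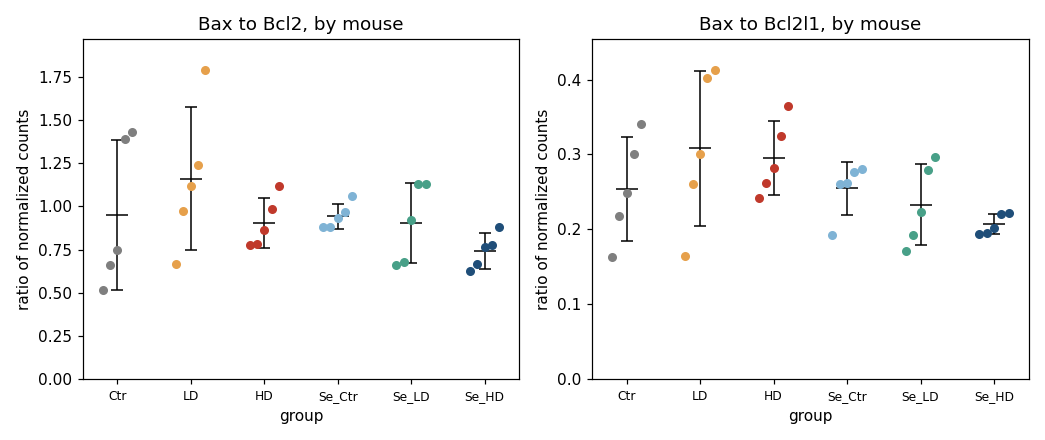
Ratio of the normalized counts of Bax to Bcl2 (left) and of Bax to Bcl2l1 (right) by group, 1 point for each mouse in ascending order, with the mean and the SD (5 mice in each group). For Bax to Bcl2 the Ctr mice alone range from 0.515 to 1.43, and for Bax to Bcl2l1 the Se_HD mice, from 0.194 to 0.222, lie below the HD mice, from 0.242 to 0.365.

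Among 14295 other genes, each with 10 or more normalized counts on average, those whose log2 levels followed each member most closely over the 30 libraries were named. For Casp9 these were Pcsk2, a convertase of prohormones in neurons (r = 0.832), and Rph3a, a protein of synaptic vesicles (0.829). Bcl2 was followed by Maf (0.759) and the inositol transporter gene Slc5a3 (0.728), Bcl2l1 by Hspa2 (0.744) and Ptpn23 (0.728), and Mcl1 by the interferon signalling gene Irf9 (0.829) and by Wwtr1 (0.828). Bax was followed by Lamtor2 (0.83) and Tmem147 (0.823), and Bad by Ddrgk1 (0.832) and again Tmem147 (0.811). Bak1 was followed by Pold2 (0.706) and Rab5c (0.699), Bid by Tmem63c (0.645) and Actn4 (0.639), and Casp8 by Micall2 (0.725) and Slc12a7 (0.721). Without HD replicate 2 the partners of Mcl1 had an r of 0.755 and 0.739, at ranks 17 and 22, and those of Casp8 one of 0.657 and 0.695, at ranks 7 and 3. Those of Bid then ranked 4 and 5 and those of Bak1 3 and 4, at an r that moved by less than 0.01, and the others ranked between 1 and 3. These are the highest of many values and carry no test.

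The promoters of Bcl2 and Casp9, the genes that passed the F test and varied in opposite directions across mice, are shown from RefSeq on its build GRCm38.p6, as the 250 bases before the annotated start, with the GC box motif GGGCGG on either strand in capitals.
Bcl2 (chr1:106714291-106714540, minus strand): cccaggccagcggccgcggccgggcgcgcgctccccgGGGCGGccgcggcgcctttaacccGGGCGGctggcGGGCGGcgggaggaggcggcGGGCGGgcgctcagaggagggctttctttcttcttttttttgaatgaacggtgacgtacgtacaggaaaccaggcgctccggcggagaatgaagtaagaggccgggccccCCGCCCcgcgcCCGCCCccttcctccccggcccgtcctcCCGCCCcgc
Casp9 (chr4:141793362-141793611, plus strand): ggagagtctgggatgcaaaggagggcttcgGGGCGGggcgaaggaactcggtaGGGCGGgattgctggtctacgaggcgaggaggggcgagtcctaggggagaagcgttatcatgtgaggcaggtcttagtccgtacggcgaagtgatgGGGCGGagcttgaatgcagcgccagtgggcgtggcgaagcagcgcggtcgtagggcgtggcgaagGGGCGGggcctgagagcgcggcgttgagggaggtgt
Bcl2 held 7 matches and Casp9 held 4, where 32.7% of all 32851 promoters of this length held at least 1. Of the other members Bid and 1 promoter of Bad held 3, Bax held 2 and Mcl1 held 1. None of the 9 had TATAAA, found in 12.4% of promoters. A match describes the letters only, and no binding was measured here.

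Other genes of the pathway were counted in 6 lists of 81 genes, of which 75 were tested. In HD against Ctr 10 were higher and 3 lower at a p under 0.05, 17.3% of the 75, where 11.1% of all genes tested did. Without HD replicate 2 the count fell from 13 to 5, which is 6.76% of the 74 then tested, beside 8.97% of all genes. The median log2 fold change of the list was 0.11, and 0.06 without that mouse, and none of the 75 had an adjusted p under 0.05. In Se_HD against Se_Ctr 0 were higher and 1 lower with limma (1.33%, beside 2.69% of all genes), and the median was -0.01. In LD against Ctr 3 were higher and 1 lower (5.33%, beside 4.68%), and in Se_LD against Se_Ctr 1 was higher and 1 lower (2.67%, beside 1.96%). The shares in these last 3 comparisons lay near those of all genes. Besides Fadd, described below, Aifm1 (limma p of 0.0124) and Cycs (0.0361) were higher and Endog (0.0119) lower in LD than in Ctr mice. In Se_LD against Se_Ctr Bcl2l11 was higher (limma p of 0.0136) and Cycs lower (0.0279). Aifm1, Cycs, Endog and Bcl2l11 were named after their values were seen. In Se_HD against HD 3 were higher and 5 lower, 10.7% beside 8.38% of all genes, and without HD replicate 2 the count was 2 higher and 2 lower, 5.41% beside 7.39%.

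Death receptors and their adaptors, upstream of Casp8, held 5 of the 10 higher genes in HD, of 16 tested, where 11.1% of all genes passed in either direction, and the list's median log2 fold change was 0.36. Without HD replicate 2 the count was 2 of 16 (12.5%, beside 8.97% of all genes) and the median 0.28. Tnfrsf1a, a receptor for tumour necrosis factor, was at 74.2 to 343 normalized counts in HD and 55.2 to 80 in Ctr mice (log2 fold change 0.75, SE 0.25, limma p of 0.00442, adjusted p = 0.161, exact permutation p = 0.0873), and its log2 fold change was 0.37 (limma p of 0.0383) without HD replicate 2. Fadd, the adaptor that recruits the Casp8 product, was at 13.1 to 30.9 in HD and 2.25 to 17 in Ctr mice (log2 fold change 1.00, SE 0.38, limma p of 0.0119, exact permutation p = 0.0714). That limma p was 0.0338 without HD replicate 2, at a log2 fold change of 0.88, and 0.0945 without Ctr replicate 4, the mouse with the lowest value, at 0.57. Fadd was also higher in LD mice, at 14.8 to 23 normalized counts, against the same Ctr mice (log2 fold change 0.95, SE 0.38, limma p of 0.0166, adjusted p = 0.994, and 0.52 with a limma p of 0.127 without Ctr replicate 4). Cflar, an inhibitor of Casp8 activation, was at 436 ± 74.6 in HD and 340 ± 64.1 in Ctr mice (log2 fold change 0.36, SE 0.14, limma p of 0.0168, exact permutation p = 0.0635), and the limma p was 0.0652 without HD replicate 2 and 0.0909 without Ctr replicate 1. The other 2, named after their values were seen, were Tnfrsf1b (limma p of 0.0296, and 0.138 without HD replicate 2) and Tnf, which was at 0 in all Ctr mice and at 2.46 ± 3.79 in HD mice (limma p of 0.0128, and 0.109 without HD replicate 2). In Se_HD against Se_Ctr no gene of this list passed with limma, at a median of 0.14. The microglial and astrocyte sums given above were higher in the same HD mice, and their part in these values was not tested.

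Of 15 other relatives of Bcl2 tested, Bnip3, a mitochondrial BH3 protein linked to hypoxia and mitophagy, was lower in HD, at 493 ± 70.4 against 572 ± 35.7 normalized counts in Ctr mice (log2 fold change -0.22, SE 0.09, limma p of 0.0214, exact permutation p = 0.0714). The limma p of Bnip3 was 0.0638 without HD replicate 2 and 0.0888 without HD replicate 5. Bcl2a1a, named after its values were seen, was at 0 in all Ctr mice and at 0 to 5.71 in HD mice. Of 7 other caspases Casp2 was lower in HD, at 116 ± 17.7 against 138 ± 18.5 normalized counts in Ctr mice (log2 fold change -0.25, SE 0.11, limma p of 0.0347, exact permutation p = 0.0873). The limma p of Casp2 was 0.0803 with the diets fitted apart, 0.0984 with only the 2 groups in the fit, and from 0.0509 to 0.155 when any of 5 mice (Ctr replicates 1, 3 and 4, HD replicates 1 and 4) was left out. Casp4, an inflammatory caspase at 5.09 ± 3.59 and 1.82 ± 1.02, was higher (limma p of 0.0393, and 0.146 without HD replicate 2). Casp4 was also the 1 listed gene that was lower in Se_HD against Se_Ctr (limma p of 0.00648, adjusted p = 1, at 0.855 ± 1.46 and 3.51 ± 2.27 normalized counts). Casp4, Naip2, Birc5 and Eda2r were named after their values were seen. Among the apoptosome, mitochondrial and inhibitor genes Naip2 (limma p of 0.00138) and Birc5 (0.0166), both inhibitor-of-apoptosis relatives below 21 normalized counts on average in HD, were higher, with p of 0.0101 and 0.113 without HD replicate 2. Among p53 and its targets Ccng1 was lower, at 792 ± 95.7 against 929 ± 97.7 normalized counts in Ctr mice (log2 fold change -0.23, SE 0.09, limma p of 0.0183, exact permutation p = 0.0635), with a limma p of 0.0521 with the diets fitted apart, 0.0644 without Ctr replicate 1 and 0.0563 without HD replicate 5. Eda2r was higher (limma p of 0.0499, and 0.155 without HD replicate 2) at 5.24 ± 3.2 against 2.21 ± 1.31. The other 12 of 14 tested genes of the p53 list, Trp53 itself among them, did not pass. None of the 8 partners at the mitochondrial outer membrane passed with limma in HD against Ctr or in Se_HD against Se_Ctr. In Se_HD against HD, where 8.38% of all genes passed, 2 of these 8 were higher, both named after their values were seen, Vdac2 (log2 fold change 0.20, limma p of 0.0209, and 0.0123 without HD replicate 2) and Ywhaq (0.25, limma p of 0.0113, and 0.0212 without HD replicate 2).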

How the data were processed

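Libraries for mRNA were made with a stranded kit from the total RNA of 30 hippocampi. The authors trimmed reads with Trim Galore 0.4.2, mapped them with Hisat2 to the Ensembl build NCBIM37, counted them per gene with FeatureCounts, removed features with fewer than 10 reads in sum, and divided by DESeq2 size factors. The deposited values are thus signal values, read counts normalized per library, and all of them came out as whole reads within 0.02 reads when multiplied back by the size factor. Gene positions, exon lengths and symbols are from the annotation of NCBIM37, in which 21326 of 21412 identifiers had a symbol. The columns were mapped to groups by the library numbers in the sample labels, and each replicate is a separate mouse. The replicate numbers here only name the mice.

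A pseudocount of 1 was added to the normalized counts, and their log2 values entered a limma 3.58.1 model with trend (R 4.3.3) that held all 30 libraries and 1 coefficient per group. It covered the 21383 genes whose normalized counts summed to 10 or more. A gene passed at an unadjusted p under 0.05, as in the study's methods, which also asked for an analysis of variance first. Adjustment was by Benjamini and Hochberg's method across every gene in the fit. Fold changes are on the log2(normalized count + 1) scale, which understates those of low genes. The 7 comparisons of 2 groups were also run as two-sided exact permutation tests, of which the smallest possible p is 0.00794. The methods were tested on simulated data. Depth was between 5768208 and 11510521 reads on genes, which leaves a large counting error for the genes with the fewest reads, such as Casp8.

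The members, the lists and the tests were chosen with earlier results of these data known. Named genes are all members, for each list up to 3 genes with the lowest p in HD against Ctr or Se_HD against Se_Ctr among those with a p under 0.05 and 10 or more normalized counts on average, and the 2 genes most alike to each member. Alternatives were pseudocounts of 0.1 and 10, other filters, quantile normalization, diets or group pairs fitted apart, sets of 6 library numbers as a covariate, limma without trend, an ordinary per-gene model, the count models of edgeR 4.0.16 and of DESeq2 1.42.0 (on reads recovered as above), stricter call rules and leaving out each mouse. Tables were handled with pandas and drawn with matplotlib.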

Additional observations from a re-analysis of the deposited data

Results flagged for a closer look

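Among the 54 sets of 5 values, 9 genes in 6 groups, 3 held a mouse far from the other 4 by Dixon's criterion, where chance alone gives about 1 in 20. Bcl2l1 in Ctr replicate 4 was at 580 normalized counts and the other Ctr mice at 701 to 710, a gap of 0.932 of the whole range. Mcl1 in HD replicate 2 was at 988 and the others at 576 to 691 (gap 0.72). Casp9 in Se_Ctr replicate 4 was at 561 and the others at 351 to 401 (gap 0.762). Without that last mouse the lowest adjusted p of Casp9 in HD against Ctr over all alternatives was reached, at 0.0629 with limma.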

How the results depend on the processing

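No member had an adjusted p under 0.05 in any comparison or alternative, which puts the count of members called by that rule at 0 in each comparison, among them HD against Ctr, Se_HD against Se_Ctr, Se_HD against HD, the mean over both diets, selenium over the 3 pairs of groups and the F test. Of 4122 values of the 9 members under the alternatives, 4086 kept their side of the threshold, 25 lost their call, 11 gained one and 0 called values reversed. Among the 4086, 100 values that were called in neither setting changed sign. The decrease of Casp9 in HD kept its call in all 43 alternatives, with log2 fold changes from -0.41 to -0.30. In HD against Ctr the count of members was 1, not 2, with the diets fitted apart, with only the 2 groups in the fit and with sets of library numbers as a covariate, because Bcl2 lost its call. With the diets fitted apart it was 1 instead of 0 in Se_LD against Se_Ctr. Asking also for an F test p under 0.05 left 1 of 2 in Se_HD against Se_Ctr and 0 of 1 both in Se_HD against HD and for selenium over the 3 pairs of groups, and limma without the trend gave 1 of 2 in the F test. The gene lost in Se_HD against Se_Ctr was Bcl2l1 (limma F test p of 0.188). That rule also drops it from the 3 called in the mean over both diets. With 1 mouse left out the counts ranged from 0 to 1 in LD against Ctr, in Se_LD against LD, in Se_HD against HD, in the difference of the HD effect between diets and for selenium over the 3 pairs of groups, from 1 to 3 in HD against Ctr, from 1 to 2 in Se_HD against Se_Ctr, from 2 to 3 in the mean over both diets, and from 1 to 4 in the F test. Of the other apoptosis genes 13 were called in HD against Ctr, 8 when 10 normalized counts on average were required, which leaves fewer genes to test, 8 with the diets fitted apart, 9 with only the 2 groups, 17 with edgeR, and 5 to 16 with 1 mouse left out, the 5 without HD replicate 2. The 1 gene called in Se_HD against Se_Ctr became 0 with that filter, 2 with the diets apart, 3 with only the 2 groups and 1 to 2 with 1 mouse left out. The 4 in LD against Ctr became 3 to 7, and the 2 in Se_LD against Se_Ctr became 4 with only the 2 groups and 1 to 3 with 1 mouse left out. Over all genes, 200 had an adjusted p under 0.05 in HD against Ctr, against 21 with the diets apart, 0 with only the 2 groups, 337 with edgeR and 384 with DESeq2. That count was 127 with limma without trend, 114 with the ordinary per-gene model, and from 63 to 359 with 1 mouse left out. Where no cause is given, the cause was not tested. With 5 mice in each group the SE of a log2 difference between 2 groups ran from 0.09 (Bcl2l1) to 0.26 (Casp8, at the fewest reads). Changes below about 2 SE could not be told from none.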
